A study of Mus musculus with 6 samples.

Results

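Pyruvate and lactate handling is represented here by 10 genes, chosen by name with earlier results of these data known, of the 23203 loci. They encode the steps at the fork where glucose carbon, once it has become pyruvate, is either turned into lactate and exported or admitted to the mitochondrion. The genes are Pkm, Ldha, Ldhb, Slc16a1, Slc16a3, Pdk1, Pdk2, Pdk3, Pdha1 and Pdp1, and each was found as a locus with 1 gene symbol. Expression was measured in naive mouse CD4 T cells cultured for 48 h under Th17 conditions, with plate-bound anti-CD3e at 10 µg/ml, anti-CD28 at 1 µg/ml, IL-6 at 20 ng/ml, TGFb1 at 2.5 ng/ml and IL-23 at 10 ng/ml. All cultures received this mix, together with either vehicle (DMSO, 3 libraries) or 2DG at 250 µM (2-deoxyglucose, a glucose analogue that inhibits glycolysis, 3 libraries). The labels give no strain, genotype or age, and do not state from how many animals or cultures each group was made, so the p-values cover the spread between these libraries only, which may be technical. Lactate and pyruvate were not measured in the values used, and a transcript level says nothing of the enzyme's activity.

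Pyruvate kinase makes pyruvate in the last step of glycolysis. Lactate dehydrogenase, a tetramer of A and B subunits, interconverts pyruvate and lactate and regenerates the NAD+ that glycolysis needs, and the monocarboxylate transporters MCT1 (Slc16a1) and MCT4 (Slc16a3) carry lactate across the plasma membrane with a proton. The pyruvate dehydrogenase complex instead converts pyruvate to acetyl-CoA in mitochondria. It is switched off when pyruvate dehydrogenase kinases phosphorylate its E1 alpha subunit (Pdha1), and switched on again when phosphatases such as Pdp1 remove the phosphate. Activated T cells, Th17 cells among them, are known for making lactate from glucose in the presence of oxygen, and HIF-1 and MYC are transcription factors known to act on several of these genes.

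The values are FPKM, by definition fragments per kilobase of transcript scaled by the mapped fragments. How these values were scaled between libraries is not stated. FPKM correct for transcript length, so levels can be roughly compared between genes. Reads shared with near-identical copies make some values uncertain, and Gapdh was listed at only 0.135 to 1.12 FPKM. The order of levels and the ratios between genes given below share this limit. The sums of FPKM lay between 1469420 and 1958740 per library, with replicate 1 the lowest in each group. Small RNA genes made up 72.1% to 78.2% of each sum. Making the sums equal, 1 of the alternatives below, thus scales mostly by these genes. The absolute depth is unknown, since FPKM carry no read counts. A rough relative depth, read from the steps in low values, was lowest in vehicle replicate 2 (0.413 of that of vehicle replicate 1) and highest in 2DG replicate 1 (1.09). The 3 T cell markers Cd3e, Cd3d and Cd4 summed to between 272 and 368 FPKM, and the Th17 markers to between 1730 and 2008 FPKM in vehicle cultures and between 2371 and 3090 FPKM in 2DG cultures. CD8 markers summed to between 2.68 and 5.51 FPKM, B cell and myeloid markers to at most 2.48 FPKM, NK cell markers to at most 0.0755 FPKM, and the 3 erythroid markers found were at 0. Since the samples are bulk RNA, fewer cells of a type and less RNA per cell cannot be told apart.

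None of the members passed the test between 2DG and vehicle. Ldha and Pkm, the most abundant of the 10, were at 1376 ± 91.0 and 1088 ± 182 FPKM in vehicle cultures and at 1341 ± 146 and 1122 ± 179 FPKM in 2DG cultures (SD, n = 3 each). Slc16a1 and Pdk1 were higher in every 2DG library than in any vehicle library, by 1.17-fold and 1.21-fold, but not beyond the threshold. Of the 10 members, 9 had a mean of at least 1 FPKM and were tested, and Pdk2 was below it. By limma on log2(FPKM + 1), with Benjamini-Hochberg adjustment over 10228 loci, 0 of the 9 were called at 0.05, while 2.72% of all tested loci were called (1.53% higher and 1.19% lower). The number of the 9 with an unadjusted p under 0.05 was 2, against 17.9% of all tested loci. Groups that did not overlap were seen in 2 of the 9, both higher with 2DG, where 23.7% of all tested loci did not overlap and 11.9% were higher in this way. The members' counts were near the background shares for loci called, for unadjusted p and for groups without overlap in either direction. The 2 of 9 higher without overlap lay above the 11.9%, a difference of few genes that was not tested.

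To show what lies before start sites of some members, none of them called, an upstream stretch is given for Ldha, Slc16a1 and Pdk1. Ldha is the most abundant member, and Slc16a1 and Pdk1 are the members whose groups did not overlap. Each stretch is 250 bases from RefSeq (GRCm38.p6), 5′ to 3′ on the gene's own strand, all on the plus strand. Capitals mark ACGTG and GCGTG, the core bound by HIF-1, on either strand (CACGT and CACGC on the other), and CACGTG, the E-box bound by MYC with MAX, holds ACGTG on both strands. The first stretch is chr7:46845554-46845803, the second chr3:104638414-104638663 and the third chr2:71872974-71873223. The Ldha stretch lies inside the annotated gene, which begins at 46842274, and no window was given for that first base. The Pdk1 stretch runs just past the annotated start of its gene at 71873215.
Ldha: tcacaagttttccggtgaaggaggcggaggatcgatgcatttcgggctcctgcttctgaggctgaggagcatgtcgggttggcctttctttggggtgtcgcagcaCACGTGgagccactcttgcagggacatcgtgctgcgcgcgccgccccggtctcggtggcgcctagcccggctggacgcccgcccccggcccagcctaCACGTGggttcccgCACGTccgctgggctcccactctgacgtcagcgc
Slc16a1: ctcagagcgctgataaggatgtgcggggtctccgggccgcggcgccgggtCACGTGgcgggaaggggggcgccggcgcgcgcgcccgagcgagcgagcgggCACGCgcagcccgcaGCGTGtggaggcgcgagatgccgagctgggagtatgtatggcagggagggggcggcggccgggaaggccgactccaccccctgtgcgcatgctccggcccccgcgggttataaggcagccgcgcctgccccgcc
Pdk1: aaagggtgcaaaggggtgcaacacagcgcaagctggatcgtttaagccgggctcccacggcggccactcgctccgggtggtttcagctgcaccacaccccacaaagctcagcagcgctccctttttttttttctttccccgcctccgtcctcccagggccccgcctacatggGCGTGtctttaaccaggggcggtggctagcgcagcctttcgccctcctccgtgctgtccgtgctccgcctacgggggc
In the Ldha stretch CACGTG occurred 2 times, in that of Slc16a1 1 time and in that of Pdk1 0 times. The Pdk1 stretch held 1 GCGTG and no ACGTG. RefSeq gives Ldha and Pdk1 a second window each, not printed, at chr7:46846832-46847081 with 0 ACGTG, 1 GCGTG and 0 CACGTG and at chr2:71874654-71874903 with 0 of each. For 9 of the 10 members RefSeq gave 13 such windows, since some genes have several starts, and Pdp1 was not among them. ACGTG was found in 6 of the 9 genes (6 of 13 windows, against 16.6% of the 32851 windows of all genes), GCGTG in 6 of the 9 (6 of 13 windows, against 28.2%) and CACGTG in 3 of the 9 (3 of 13 windows, against 6.02%). The windows of all genes were not matched to the members' windows in base composition, and the difference in shares was not tested. The members were chosen by name, and HIF-1 and MYC are known to act on several of them. A match of these letters is a description and not a site, and binding was not measured.

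Levels differed far more between the genes than between the groups. Over all 6 libraries the order was Ldha (1358 ± 111 FPKM, SD, n = 6), Pkm (1105 ± 162), Slc16a3 (209.7 ± 37.7), Pdha1 (94.7 ± 6.79), Slc16a1 (88.6 ± 9.92), Pdk1 (51.3 ± 7.65), Pdk3 (42.9 ± 5.21), Ldhb (6.99 ± 1.86), Pdp1 (6.77 ± 0.832) and Pdk2 (0.458 ± 0.134). Ldha ranked 28 and Pkm 34 among 10005 tested loci with small RNA genes left out, and Slc16a3 ranked 244. Some neighbours in this order had overlapping ranges. Those of Ldha and Pkm overlapped, although Ldha was higher in all 6 libraries, as did those of Pdk1 and Pdk3, with Pdk1 higher in all 6. Pdha1 and Slc16a1 were in this order in 4 of 6 libraries only, and so were Ldhb and Pdp1. The other 5 steps of the order had ranges that did not meet.

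**Figure D1:**
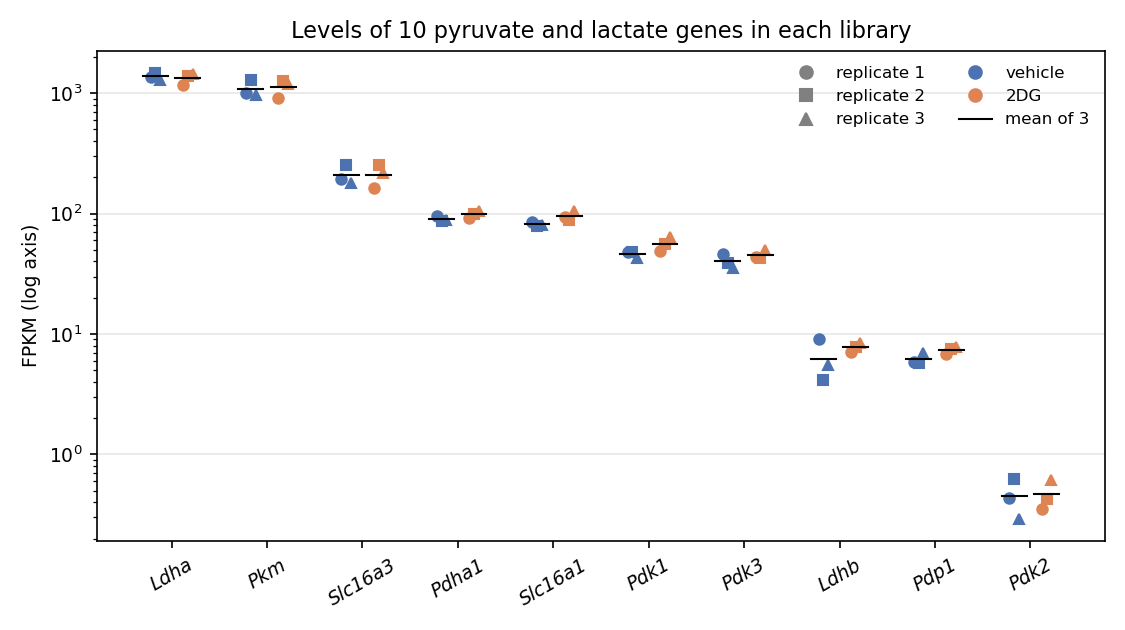
FPKM on a log axis for each of the 10 genes, ordered by mean, with 1 symbol per library (circle, square and triangle for replicates 1, 2 and 3), vehicle in blue and 2DG in orange, and a line at each group's mean of 3. The means of the 2 groups lie close together for each gene compared with the distances between most genes, which run from a mean of 1358 FPKM for Ldha to one of 0.458 FPKM for Pdk2.

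Pyruvate production was covered by Pkm, the pyruvate kinase gene of muscle and proliferating cells (chromosome 9, 59656576 to 59679372, GRCm38.p6, as for all positions here). Its level was 1001, 1296 and 965 FPKM in vehicle replicates 1, 2 and 3 and 918, 1255 and 1192 FPKM in 2DG replicates 1, 2 and 3. The groups overlapped fully, with replicate 2 the highest in both. Its log2 fold change was 0.044 ± 0.17 (SE, limma adjusted p = 0.92), and the 95% interval ran from 0.782-fold to 1.36-fold. The table gives 1 value for the gene, so its M1 and M2 splice forms cannot be separated. The liver and red cell gene Pklr was at 0 in 5 libraries and at 0.0619 FPKM in vehicle replicate 3.

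Lactate dehydrogenase transcripts were almost wholly those of Ldha, the A subunit (chromosome 7, 46842274 to 46855627). Ldha was at 1369, 1470 and 1288 FPKM in vehicle replicates 1, 2 and 3 and at 1175, 1398 and 1450 FPKM in 2DG replicates 1, 2 and 3. The lowest and the second highest value both came from 2DG libraries. For Ldha the log2 fold change was -0.041 ± 0.12 (SE, limma adjusted p = 0.90), with a 95% interval from 0.796-fold to 1.19-fold. Ldha has processed pseudogenes, and their shared reads make its value uncertain.

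Ldhb, the B subunit, which is typical of tissues that take up lactate (chromosome 6, 142490249 to 142507957), was at 9.02, 4.13 and 5.50 FPKM in vehicle cultures and at 7.08, 7.83 and 8.40 FPKM in 2DG cultures. The vehicle libraries held both the highest and the lowest value, and the spread among them, a coefficient of variation of 40.6%, was the widest of the 10 members in either group. Its log2 fold change was 0.34 ± 0.23 (SE, limma adjusted p = 0.52) with an interval from 0.864-fold to 1.84-fold. Without vehicle replicate 1 the log2 fold change was 0.60 and without vehicle replicate 2 it was 0.12, with adjusted p of 0.11 and 0.84. Ldhb made up 0.655%, 0.280% and 0.425% of the summed Ldha and Ldhb FPKM in the vehicle libraries and 0.599%, 0.557% and 0.576% in the 2DG libraries. The ratio of A to B subunit transcripts was at least 152 in every library. Of the other lactate dehydrogenase genes, Ldhc was at 0 except for 0.0801 FPKM in 2DG replicate 1, and Ldhd, which acts on D-lactate, was at 5.01 ± 2.55 and 2.60 ± 0.401 FPKM (SD, n = 3 each, limma adjusted p = 0.28).

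Both lactate transporters were expressed. Slc16a3, the exporter MCT4 of glycolytic cells (chromosome 11, 120948484 to 120959000), was at 192, 251 and 181 FPKM in vehicle cultures and at 163, 255 and 215 FPKM in 2DG cultures. As with Pkm, replicate 2 was the highest in each group, and the lowest value was that of 2DG replicate 1. Slc16a3 had a log2 fold change of 0.011 ± 0.19 (SE, limma adjusted p = 0.99), with an interval from 0.740-fold to 1.37-fold, the lowest bound of the 9 members.

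Slc16a1, MCT1, which carries lactate in either direction (chromosome 3, 104638664 to 104658462), was at 84.9, 78.2 and 80.8 FPKM in vehicle cultures and at 93.0, 88.8 and 105.6 FPKM in 2DG cultures. Each 2DG library lay above each vehicle library. This gave a log2 fold change of 0.23 ± 0.088 (SE, limma p = 0.033, adjusted p = 0.23), and the exact two-sided permutation p was 0.1, the smallest that 3 against 3 libraries allow. The unadjusted interval ran from 1.02-fold to 1.35-fold. Without 2DG replicate 3 the log2 fold change was 0.16, and over all alternatives the adjusted p lay between 0.15 and 0.93.

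Slc16a3 made up 69.4%, 76.3% and 69.1% of the summed FPKM of both transporters in the vehicle libraries and 63.7%, 74.1% and 67.1% in the 2DG libraries, so it was the larger part throughout and the groups overlapped. Basigin (Bsg) is the membrane partner that MCT1 and MCT4 need to reach the cell surface. It was at 365, 446 and 352 FPKM in vehicle cultures and 268, 364 and 349 FPKM in 2DG cultures, which overlapped (log2 fold change -0.25 ± 0.15, SE, limma adjusted p = 0.44). For Bsg the log2 fold change was -0.11 without 2DG replicate 1 and -0.14 without vehicle replicate 2. Its ratio to the summed transporters, chosen after the values were seen and therefore not tested, was 1.32, 1.35 and 1.34 with vehicle and 1.05, 1.06 and 1.09 with 2DG. It was 1 of 11 sums, ratios and shares of these genes that were not planned beforehand, of which 5 did not overlap between the groups. The planned isozyme shares, those of Ldhb, Slc16a3, Pdk1, Pdk2 and Pdk3, came in addition, and all of these overlapped. That plan was itself made with earlier results of these data known. No background share was computed for such measures. Embigin (Emb), a partner protein of the same family, was at 147 ± 8.95 and 151 ± 15.3 FPKM (SD, n = 3 each, limma adjusted p = 0.88). The transporter genes Slc16a7 and Slc16a8 were at or under 0.118 FPKM in every library, and Slc5a8 and Slc5a12 were at 0 in all 6.

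**Figure D2:**
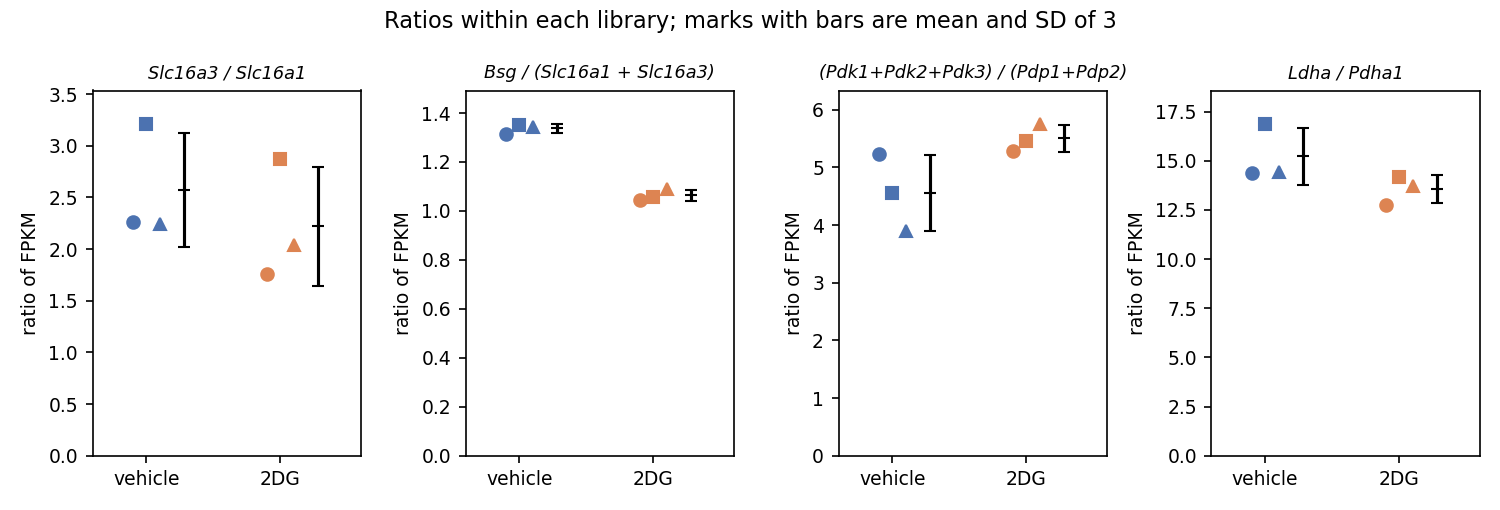
Ratios of FPKM within each library, with circle, square and triangle for replicates 1, 2 and 3 and a mark with bars for the mean and SD of 3, on axes from 0. The ratio Bsg to summed Slc16a1 and Slc16a3 is near 1.34 in the vehicle libraries and near 1.06 in the 2DG libraries, while Slc16a3 to Slc16a1 overlaps between the groups. Also shown are summed kinases to summed phosphatases and Ldha to Pdha1, which do not overlap. None of the ratios shown was planned beforehand, and none was tested.

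Among the kinases that switch off pyruvate dehydrogenase, Pdk1 and Pdk3 were expressed at like levels, Pdk2 was barely detected and Pdk4 was at 0 in all 6 libraries. Pdk1 (chromosome 2, 71873215 to 71903858), a known HIF-1 target, was at 47.7, 48.1 and 42.7 FPKM in vehicle cultures and at 49.0, 55.9 and 64.3 FPKM in 2DG cultures. The 2DG libraries all lay above the vehicle libraries, the closest pair being 48.1 and 49.0 FPKM. Pdk1 had a log2 fold change of 0.28 ± 0.11 (SE, limma p = 0.041, adjusted p = 0.25), the exact two-sided permutation p was 0.1, and the unadjusted interval ran from 1.01-fold to 1.45-fold. Without 2DG replicate 3 the log2 fold change was 0.18, and over all alternatives the adjusted p lay between 0.20 and 0.77.

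Pdk3 (chromosome X, 93764616 to 93832150), the kinase least inhibited by pyruvate, was at 46.3, 38.6 and 35.6 FPKM in vehicle cultures and at 43.8, 43.2 and 50.1 FPKM in 2DG cultures. Vehicle replicate 1 lay within the 2DG range and the other 2 vehicle libraries below it. The log2 fold change was 0.19 ± 0.11 (SE, limma adjusted p = 0.46; interval 0.944-fold to 1.37-fold). Leaving out vehicle replicate 3 gave 0.11, leaving out 2DG replicate 3 gave 0.12, and leaving out vehicle replicate 1 gave 0.29. Pdk2 (chromosome 11, 95026258 to 95041371), the most widely expressed kinase in other tissues, was at 0.436, 0.624 and 0.293 FPKM in vehicle cultures and 0.353, 0.430 and 0.610 FPKM in 2DG cultures. These ranges overlapped, and without a filter on low values its log2 fold change was 0.016 ± 0.11 (SE, limma adjusted p = 0.96 over 15371 loci).

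Within the summed kinase FPKM, Pdk1 made up 50.5%, 55.1% and 54.3% in the vehicle libraries and 52.6%, 56.2% and 55.9% in the 2DG libraries. Pdk3 supplied nearly all of the rest, at 46.2% ± 2.51 and 44.7% ± 2.04 (SD, n = 3 each), and Pdk2 supplied at most 0.714% in any library. The kinase mixture therefore differed between the groups by less than the spread between libraries.

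The kinases' target, Pdha1, the E1 alpha subunit on the X chromosome (160122219 to 160138430), was at 95.4, 87.1 and 89.2 FPKM in vehicle cultures and at 92.0, 98.8 and 105.6 FPKM in 2DG cultures. The lowest 2DG value lay below the highest vehicle value. For Pdha1 the log2 fold change was 0.12 ± 0.082 (SE, limma adjusted p = 0.50), and its interval, 0.953-fold to 1.24-fold, was the narrowest of the 9. Without 2DG replicate 3 the log2 fold change was 0.074. The ratio of Ldha to Pdha1, the entries to the 2 branches, was 14.35, 16.9 and 14.4 with vehicle and 12.8, 14.2 and 13.7 with 2DG. These did not overlap, but the ratio was chosen after the values were seen and was not tested, and the nearest values of the groups were close. Without vehicle replicate 2 the difference of means (2DG minus vehicle) was -0.84 in place of -1.67.

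The other subunits of the complex lay closer to equality between the groups. Pdhb, E1 beta, was at 38.3 ± 3.81 FPKM in vehicle cultures and 37.4 ± 2.73 FPKM in 2DG cultures (SD, n = 3 each, limma adjusted p = 0.91). Dlat, the E2 core, was at 27.0 ± 3.26 and 25.7 ± 2.39 FPKM (adjusted p = 0.83 by limma). Dld, the E3 enzyme shared with other dehydrogenases, was at 53.3 ± 7.48 and 55.0 ± 7.12 FPKM, and Pdhx, the E3-binding protein, at 12.0 ± 0.998 and 11.9 ± 0.865 FPKM (limma adjusted p = 0.90 and 0.96). Pdha1 transcripts exceeded those of its partner Pdhb by 2.25-fold to 3.06-fold in every library. The testis copy Pdha2 was at 0 in all 6.

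Pdp1, the calcium-stimulated phosphatase that reverses the kinases (chromosome 4, 11958183 to 11966450), was at 5.82, 5.74 and 6.96 FPKM in vehicle cultures and at 6.88, 7.49 and 7.74 FPKM in 2DG cultures. Only 2DG replicate 1 lay within the vehicle range. Its log2 fold change was 0.23 ± 0.10 (SE, limma adjusted p = 0.32), with an interval from 0.985-fold to 1.39-fold. Pdp2, the second phosphatase, was the more abundant, at 12.2, 13.5 and 13.2 FPKM in vehicle cultures and 10.7, 10.7 and 12.2 FPKM in 2DG cultures, and it lay lower in each 2DG library (log2 fold change -0.19 ± 0.089, SE, limma adjusted p = 0.31). Lower values without overlap were seen in 11.8% of all tested loci. Neither phosphatase passed the test, yet Pdp1's share of their sum, chosen after the values were seen and not tested, was 32.2%, 29.9% and 34.6% with vehicle and 39.0%, 41.1% and 38.8% with 2DG. The summed kinases exceeded the summed phosphatases by 5.22-fold, 4.55-fold and 3.90-fold with vehicle and by 5.29-fold, 5.47-fold and 5.76-fold with 2DG. These ranges too did not overlap, though vehicle replicate 1 came close to 2DG replicate 1. This ratio was also chosen after the values were seen and not tested, and without vehicle replicate 3 its difference of means (2DG minus vehicle) was 0.617 in place of 0.946. The regulatory subunit gene Pdpr was at 12.7 ± 0.386 and 13.2 ± 0.914 FPKM (SD, n = 3 each, limma adjusted p = 0.79).

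Of 40 other genes of the pathway and its regulators, 39 were in the table and 27 were tested, and 0 were called in either direction. The 27 include the transcription factors Hif1a, Arnt, Myc and Max. They also include the splicing factors Hnrnpa1, Hnrnpa2b1, Ptbp1 and Srsf3, which are known to act on Pkm. Those of the 27 without overlap were 7 lower with 2DG, Arnt among them, and 2 higher, Max among them. Of all tested loci 11.8% were lower, 11.9% higher and 23.7% either in this way. The median log2 fold change was -0.033, against 0.19 for the 9 tested members and -0.0093 for all tested loci. Above 0 were 10 of the 27 other genes and 8 of the 9 members, against 47.9% of all tested loci. With 1 library left out, the number of members above 0 ranged from 6 to 9. The smallest adjusted p among the 27 belonged to Me2, the mitochondrial malic enzyme, which makes pyruvate from malate. It was at 221, 291 and 250 FPKM in vehicle cultures and 169, 193 and 185 FPKM in 2DG cultures (log2 fold change -0.47 ± 0.12, SE, limma adjusted p = 0.092).

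Pyruvate carboxylase (Pcx), which turns pyruvate into oxaloacetate, had the largest difference, at 9.28, 15.5 and 10.3 FPKM in vehicle cultures and 3.58, 6.95 and 5.93 FPKM in 2DG cultures (log2 fold change -0.97 ± 0.25, SE, limma adjusted p = 0.096). Each of its 2DG values lay below each vehicle value. Pcx was called lower when small RNA genes were left out (limma adjusted p = 0.040) or the sums were made equal (0.026), and Me2 when small RNA genes were left out (0.043). Over their 18 alternatives the adjusted p ran from 0.026 to 0.23 for Pcx and from 0.043 to 0.31 for Me2. Me2 and Pcx, and Gpt2, were chosen after their values were seen.

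Mpc1, a subunit of the carrier that brings pyruvate into mitochondria, was at 17.5, 19.0 and 21.3 FPKM in vehicle cultures and 14.3, 13.3 and 15.7 FPKM in 2DG cultures. The groups did not overlap, and the adjusted p by limma was 0.10 for a log2 fold change of -0.39 ± 0.10 (SE). Its partner Mpc2 was at 45.5 ± 4.61 and 49.6 ± 4.03 FPKM (SD, n = 3 each, limma adjusted p = 0.58). The share of Mpc1 in their sum, not tested, was 26.0%, 31.8% and 31.7% with vehicle and 23.4%, 21.8% and 22.5% with 2DG. Gpt2, which exchanges the amino group of alanine and glutamate with pyruvate as one partner, was at 6.25 ± 0.849 and 9.81 ± 1.93 FPKM (limma adjusted p = 0.12), higher in each 2DG library.

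**Figure D3:**
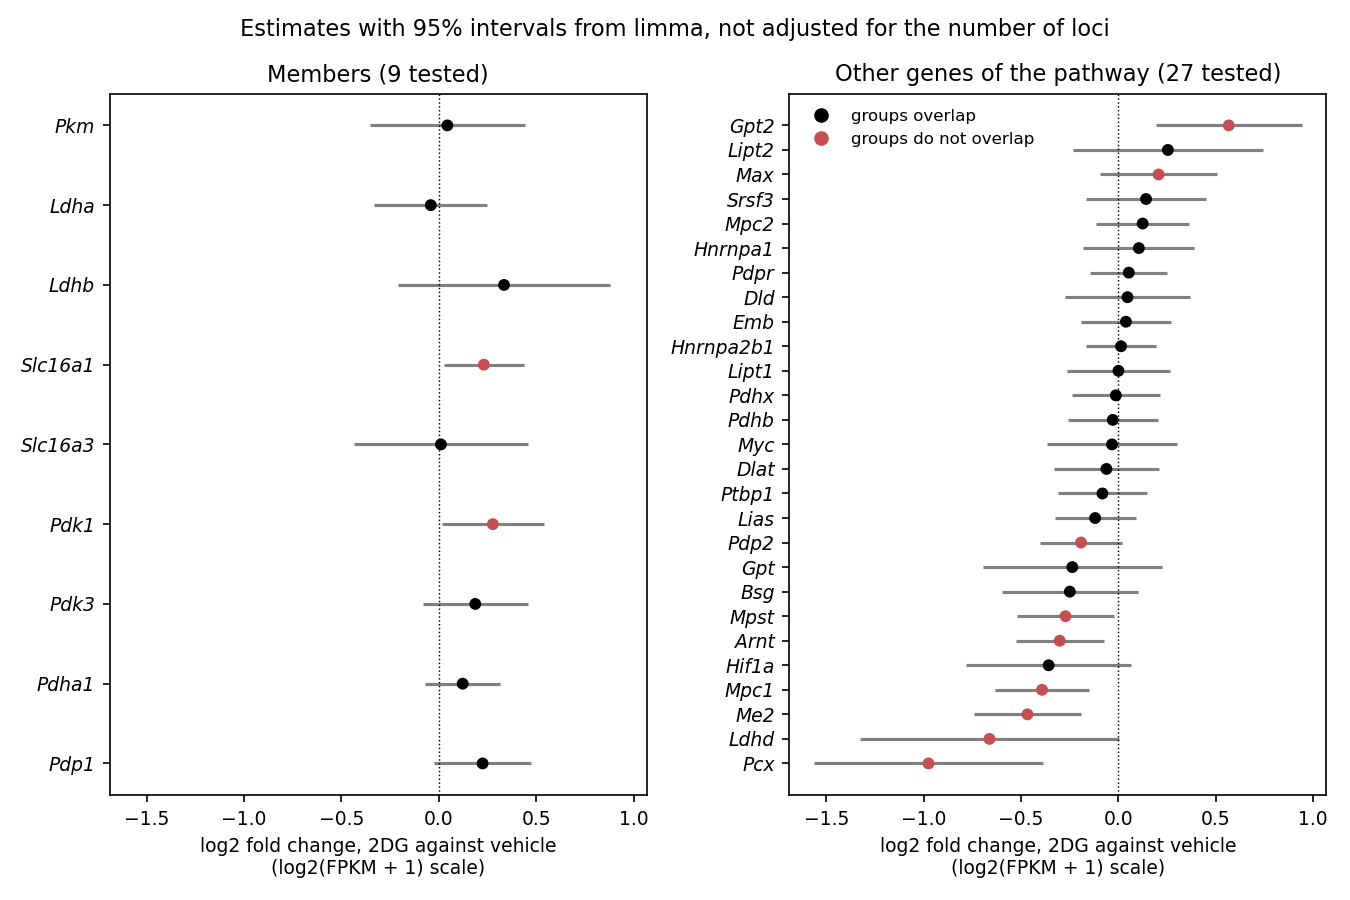
Log2 fold change of 2DG against vehicle on the log2(FPKM + 1) scale with 95% intervals from limma, for the 9 tested members (left) and the 27 other tested genes of the pathway (right), with red points where the groups do not overlap. Of the members only Slc16a1 and Pdk1 are red, both right of 0, while Pcx lies farthest to the left among the other genes.

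Transcripts of the transcription factors known to act on these genes, already counted among the other genes above, did not pass the test. Hif1a was at 377, 261 and 282 FPKM in vehicle cultures and 226, 201 and 289 FPKM in 2DG cultures, which overlapped (log2 fold change -0.36 ± 0.18, SE, limma adjusted p = 0.36). Without vehicle replicate 1 the Hif1a value was -0.20. Arnt, the partner of Hif1a in HIF-1, was at 8.66, 8.74 and 8.06 FPKM in vehicle cultures and 6.09, 6.77 and 7.28 FPKM in 2DG cultures, lower in each 2DG library (log2 fold change -0.30 ± 0.096, SE, limma adjusted p = 0.16). Myc was at 57.2 ± 8.40 and 55.8 ± 7.91 FPKM (SD, n = 3 each, limma adjusted p = 0.93). Its partner Max was at 21.0, 28.4 and 29.2 FPKM in vehicle cultures and 31.1, 29.4 and 29.8 FPKM in 2DG cultures, higher in each 2DG library (log2 fold change 0.21 ± 0.13, SE, limma adjusted p = 0.47), and without vehicle replicate 1 its log2 fold change was 0.061. The motifs marked in the upstream stretches of Ldha and Slc16a1 are those of these factors. In the Pdk1 stretch the only mark was 1 GCGTG, a HIF-1 core, and CACGTG, the motif of MYC with MAX, was absent. Protein levels of the factors were not measured.

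The members' levels also differed between libraries of the same treatment. In the 2DG group replicate 1 was the lowest for 8 of the 10 members, where it was the lowest for 35.8% of tested loci, and replicate 3 was the highest for 8 of the 10, against 34.4%. The 2DG replicate 1 library had the greatest relative depth, 1.09, and the part of depth in this was not tested. The pattern over the 6 libraries most like that of Ldha was shown by Afmid (Pearson r = 0.99), Ndufs8 (0.98) and Ralb (0.98) of 9146 loci compared, a description over 6 libraries that differ in depth. At an r of at least 0.9 lay 0.875% of these loci.

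**Figure D4:**
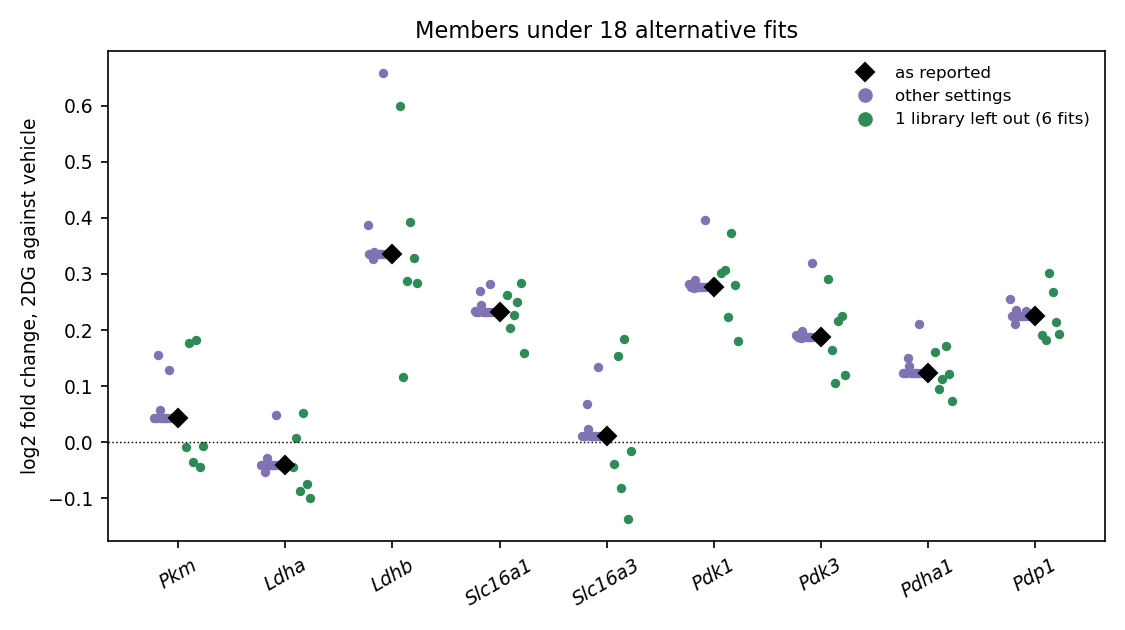
Log2 fold change of 2DG against vehicle for the 9 tested members as reported (black diamond), with 1 library left out (green, 6 fits) and under 12 other settings (purple). Slc16a1, Pdk1, Pdk3, Pdha1, Pdp1 and Ldhb stay above 0 in every fit shown, while Pkm, Ldha and Slc16a3 fall on both sides of 0.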

How the data were processed

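Libraries were grouped by their labels (3 vehicle, 3 2DG). The authors deposited 1 table, which per the file headers holds an FPKM value for every locus in every library. The names Cuffdiff (2.2.1.3), Cuffnorm (2.2.1.1), Cufflinks (2.2.1.0) and TopHat2 (2.1.0) and the build mm10 come from the submitters' processing notes, and the annotation, use of strand and scaling are not stated there. FPKM are estimates, and reads shared with near-identical copies make a gene's value uncertain. Gapdh, for one, was listed at 0.135 to 1.12 FPKM.

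Loci with a mean FPKM of 1 or more (10228) were tested on log2(FPKM + 1) by limma (3.58.1, R 4.3.3), with group as the only term, eBayes with trend, two-sided p and Benjamini-Hochberg adjustment over all of them at 0.05. Fold changes of low genes are understated by the pseudocount. Intervals cover 95% and are not adjusted for the number of loci. The code was tested on simulated data.

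The members, lists and tests were chosen with earlier results of these data known. All members were named, as were those called among 40 other pathway genes and a fixed set of them; Me2, Pcx, Gpt2, Ldhd, Arnt, Max and genes near 0 lie outside this rule and were chosen after their values were seen. Windows upstream of start sites come from RefSeq. Alternatives were a pseudocount of 0.1, no or a stricter filter (mean of 5 FPKM), quantile normalization, equal sums, leaving out small RNA genes, loci of status OK, the replicate block, eBayes without trend or robust, leaving out each library, replicates 2 and 3 only, and a term for replicate 1.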

Additional observations from a re-analysis of the deposited data

How the results depend on the processing

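The 9 tested members stayed uncalled in all 18 alternatives, with a lowest limma adjusted p of 0.11, and 6 of them kept their direction in all. Pkm, Ldha and Slc16a3 changed sign when single libraries were left out, with log2 fold changes between -0.043 and 0.18, between -0.10 and 0.051 and between -0.14 and 0.18, and with replicates 2 and 3 only Ldha was at 0.049. Among the other pathway genes named with a fold change or test, the leave-one-out ranges that crossed 0 were -0.087 to 0.047 for Pdhb, -0.15 to 0.014 for Dlat, -0.073 to 0.16 for Dld, -0.076 to 0.033 for Pdhx, -0.034 to 0.11 for Emb and -0.16 to 0.062 for Myc. With replicates 2 and 3 only, Pdhb was at 0.038, Pdhx at 0.043 and Pdpr at -0.014. Other pathway genes called lower numbered 1 with equal sums and 2 without small RNA genes.

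The count over all loci moved more than that of the members. As reported 156 were higher and 122 lower, and these became 100 and 65 once no locus was filtered, 95 and 62 with equal sums, 269 and 245 without small RNA genes, 247 and 199 with robust eBayes, and 43 and 28 with replicates 2 and 3 only. With a term for replicate 1, 80 were lower. Leaving out 1 library gave 52 to 98 higher and 25 to 69 lower. The causes were not tested. With the replicate block, a term for the number that a vehicle and a 2DG library share, 57 were higher and 44 lower, and no member was called. The labels do not say what the numbers mark. Deviations of same-numbered libraries correlated with r of -0.0838, 0.450 and -0.242 over 10005 loci. Vehicle replicate 1 was nearest to 2DG replicate 3 (r = 0.472) and vehicle replicate 3 to 2DG replicate 1 (r = 0.343), so not every library was nearest to its own number. Without counts, the limit that depth sets on low genes such as Pdk2 is unknown.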
